A study of Mus musculus with 9 samples.

Results

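The genes of oxidative phosphorylation were examined in RNA from mouse brain, comparing those encoded in the nucleus with those encoded on mitochondrial DNA. Members were chosen by symbol, as genes whose names begin with Nduf followed by a subunit letter and a digit, with Cox4 to Cox8, Uqcr or Atp5, as Sdha to Sdhd, or as the protein-coding genes with the prefix mt-. Of 20731 gene symbols in the count table, 100 matched, and 97 had at least 10 counts in at least 3 of the 9 libraries. These were 84 nuclear and 13 mt- members. The 3 that did not reach this level were Cox8b, Cox8c and Ndufb11b.

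All mice were male C57BL/6J, 8 to 10 weeks of age, and all had cerebral venous sinus thrombosis (CVST), produced by clotting of the superior sagittal sinus, with brains taken on day 2 after modelling. Mice of the CVST group (n = 3) had the thrombosis alone. In the CVST+Ligation group (n = 3), the deep cervical lymph nodes, which receive lymph from the meninges, were tied off as well. Mice of the 4-PBA group (n = 3) had both procedures and received 100 mg/kg of 4-phenylbutyric acid, a chemical chaperone used against endoplasmic reticulum stress, 30 minutes before modelling. No sham-operated group was analysed here, so none of the values shows what thrombosis itself does. Counts totalled 18100739 to 25091498 per library, and all levels below are CPM, which are counts scaled to a common library total by the TMM method, unless FPKM, which are also divided by gene length, are named.

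Oxidative phosphorylation passes electrons from NADH and succinate through complexes I to IV of the inner mitochondrial membrane to oxygen, and complex V, the ATP synthase, uses the resulting proton gradient to make ATP. Complex II is built from nuclear genes alone, whereas the other complexes combine subunits imported from the cytosol with subunits made in the mitochondrion from mitochondrial DNA. Neurons depend heavily on this pathway, and several subunits of complex IV exist as pairs of related genes, with 1 widely expressed and 1 restricted to certain tissues.

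The nuclear members comprised 36 genes of complex I, of which 7 encode its catalytic core and 29 its accessory subunits, 4 of complex II, 8 of complex III, 18 of complex IV and 17 of complex V. Cox7a2l, described as a factor that joins complexes III and IV into supercomplexes, a role not examined here, was counted apart from both. The 18 genes of complex IV included 6 tissue isoforms and 1 pseudogene, Cox5b-ps. The mt- members comprised 7 genes of complex I, 1 of complex III, 3 of complex IV and 2 of complex V. Cyc1, Ndufab1 and Atpif1 belong to the same complexes but their symbols fall outside the rule.

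To show which sequences could place a read of a mt- gene elsewhere, the annotated transcripts of the members were compared with all other annotated transcripts of the same mouse genome build (GRCm38, GENCODE M21) in windows of 150 bases, the read length. A row of pseudogenes on chromosome 1, where a piece of mitochondrial DNA has been copied into the nucleus, held 99.4% of the windows of mt-Co2, 99.4% of mt-Atp6, 99.8% of mt-Co3, 97.0% of mt-Nd3 and 98.0% of mt-Nd4l. It held 59.2% of the windows of mt-Nd4 and 23.6% of mt-Co1, and none of those of mt-Nd1, mt-Nd2, mt-Nd5, mt-Nd6 or mt-Cytb. mt-Atp8, which follows mt-Co2, shared no window with another annotated transcript, but 21.1% of its bases overlap mt-Atp6 on the same strand. The pseudogene Gm28661 (chr1:24614885-24615565, minus strand) had 0 differences from mt-Co2 (chrM:7013-7696, plus strand) over 681 aligned bases. The first 120 bases of both, the start of the gene for the second core subunit of complex IV, are shown because their letters are the same in both, and no capitals are used since no base differed:
mt-Co2: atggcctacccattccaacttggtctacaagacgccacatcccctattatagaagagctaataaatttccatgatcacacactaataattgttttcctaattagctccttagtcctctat
Gm28661: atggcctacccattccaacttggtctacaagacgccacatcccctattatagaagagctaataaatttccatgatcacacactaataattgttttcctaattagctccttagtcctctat

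In mt-Co1 (chrM:5328-6872, plus strand), the copy Gm29216 (chr1:24615706-24616197, minus strand) covered only the last 492 of 1545 bases and differed at 6 of them. Bases 1054 to 1125 of mt-Co1 are shown with the same stretch of the copy to mark where the shared part begins, with the differing bases in capitals:
mt-Co1: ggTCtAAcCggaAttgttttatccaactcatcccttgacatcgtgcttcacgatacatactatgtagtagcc
Gm29216: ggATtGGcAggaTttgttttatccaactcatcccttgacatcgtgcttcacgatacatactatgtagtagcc

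The levels of the mt- members spanned a wide range. Per length, mt-Co1, which encodes the catalytic subunit of complex IV, had the highest median over the 9 libraries, 27421 FPKM, followed by mt-Cytb, the catalytic cytochrome b of complex III, with 9574 FPKM. mt-Nd1, mt-Nd2, mt-Nd4, mt-Nd6 and mt-Nd5, all core subunits of complex I, had medians of 7711, 3927, 1931, 1795 and 1338 FPKM. The 6 genes that lie next to each other from mt-Co2 to mt-Nd4l were lower, with medians of 313 FPKM for mt-Nd3, 296 FPKM for mt-Co3, 180.0 FPKM for mt-Co2, 122 FPKM for mt-Atp6, 43.1 FPKM for mt-Nd4l and 4.40 FPKM for mt-Atp8. Of these 6, all but mt-Atp8 shared over 90% of their windows with the nuclear pseudogenes. How the authors treated reads with several matching places is not stated, and the part of the shared sequence in these levels was not tested. Levels of these genes, of mt-Nd4 and, over the part that is shared, of mt-Co1 are therefore uncertain, and a comparison between groups of such a gene is a comparison of the reads that the counting kept.

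**Figure D1:**
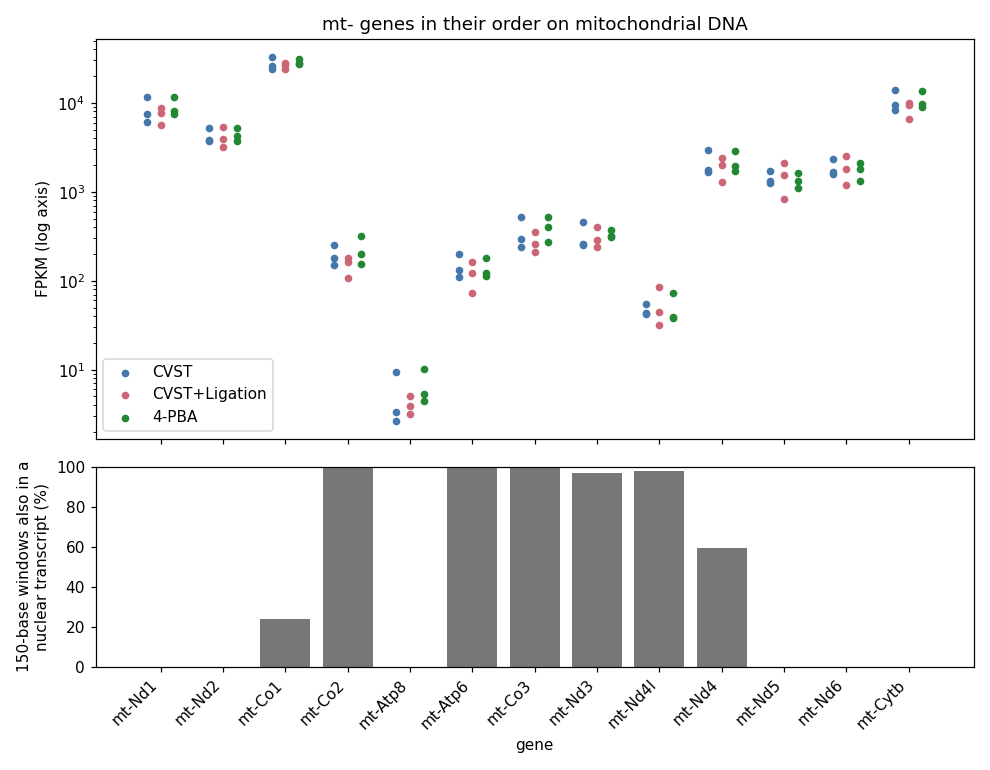
Upper panel: FPKM of the 13 mt- members (log axis) in each of 9 libraries, coloured by group, with genes in their order on mitochondrial DNA. Lower panel: the percent of each gene's 150-base windows also found in an annotated nuclear transcript. The genes from mt-Co2 to mt-Nd4l have medians of 4.40 to 313 FPKM, whereas the other 7 have medians of 1338 to 27421 FPKM.

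Nuclear members had a median level of 288 FPKM, compared with 1338 FPKM for the mt- members. The lengths behind these FPKM were unlike. Ndufb3 had 312 bases against 763 in its longest annotated transcript, whereas Atp5o had 968 against 838 and mt-Co1 1542 against 1545. Differences in FPKM between nuclear and mt- members, and between complexes, therefore depend in part on the length used. By complex, the medians were 200.4 FPKM in complex I, 241 FPKM in complex II, 383 FPKM in complex III, 539 FPKM in complex IV and 541 FPKM in complex V. The highest nuclear level was 1381 FPKM for Atp5b, the catalytic beta subunit of ATP synthase, and the lowest 1.51 FPKM for Cox7b2, a testis isoform, which had too few counts to be tested. The other 96 members were tested. The 6 tissue isoforms of complex IV had a median of 5.95 FPKM. Ndufb8, an accessory subunit of complex I, was listed at 4.98 FPKM, well under the median of its complex, with 60 to 93 counts per library. Among 80 nuclear members with an annotated transcript, 16 shared a window with another gene and 8 shared over 10% of their windows, led by Atp5l with 44.6% and Ndufb4 with 29.3%.

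Promoters are shown for a few members because the nuclear genes, unlike the mt- genes, depend on separate promoters. RefSeq promoters (GRCm38.p6, 250 bases before to 50 after the start) were found for 68 of 84 nuclear members, and both strands were searched for 4 motifs. The letters GCGCANGCGC of NRF1, a regulator of respiratory chain genes, were present in 17 of 68 members (25%) and in 5.19% of 27025 genes with a promoter. The ETS letters CCGGAAG, bound by NRF2 among other factors, were found in 17 members (25%) against 9.93% of genes, and the YY1 letters AAGATGGC in 10 members (14.7%) against 3.19%. The E-box CACGTG was present in 6 members (8.82%) against 8.09% of genes. A match is a description of the letters, not of a bound site. The promoters of 2 members with NRF1 letters and 1 tissue isoform with none of the 4 motifs are shown, with NRF1 and ETS letters in capitals, on the minus strand for Cox6a1 (chr5:115348909-115349208) and Sdha (chr13:74350191-74350490) and on the plus strand for Cox7a1 (chr7:30183921-30184220):
Cox6a1: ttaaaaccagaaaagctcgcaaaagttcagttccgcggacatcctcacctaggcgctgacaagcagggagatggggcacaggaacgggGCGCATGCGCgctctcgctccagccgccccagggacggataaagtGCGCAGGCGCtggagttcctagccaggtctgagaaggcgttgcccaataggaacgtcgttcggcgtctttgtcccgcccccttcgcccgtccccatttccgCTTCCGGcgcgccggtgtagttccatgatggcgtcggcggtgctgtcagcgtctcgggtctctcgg
Sdha: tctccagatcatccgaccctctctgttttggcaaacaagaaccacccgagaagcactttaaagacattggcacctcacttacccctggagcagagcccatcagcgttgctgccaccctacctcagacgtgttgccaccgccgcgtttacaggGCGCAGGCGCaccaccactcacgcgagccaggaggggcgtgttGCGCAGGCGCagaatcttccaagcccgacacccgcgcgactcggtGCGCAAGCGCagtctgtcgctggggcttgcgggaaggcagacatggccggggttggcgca
Cox7a1: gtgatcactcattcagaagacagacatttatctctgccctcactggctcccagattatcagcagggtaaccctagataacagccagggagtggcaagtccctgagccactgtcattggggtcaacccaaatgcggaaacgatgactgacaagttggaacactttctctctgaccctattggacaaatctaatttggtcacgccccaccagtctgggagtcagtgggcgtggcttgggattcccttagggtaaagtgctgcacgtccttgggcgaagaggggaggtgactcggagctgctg

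The members were first compared between single libraries. CVST replicate 3 had the highest level of all 9 libraries for 68 of 83 tested nuclear members and for 7 of 13 mt- members, against 21.3% of all genes tested. CVST replicate 1 had the lowest level for 44 of 83 nuclear members, against 14.4% of all genes. Both libraries belonged to the CVST group. CVST+Ligation replicate 2 had the lowest level for 12 of 13 mt- members, against 16.6% of all genes, while its nuclear members had a median deviation of 0.02 (log2) from their mean over the 9 libraries. In that library nuclear and mt- members thus lay apart.

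**Figure D2:**
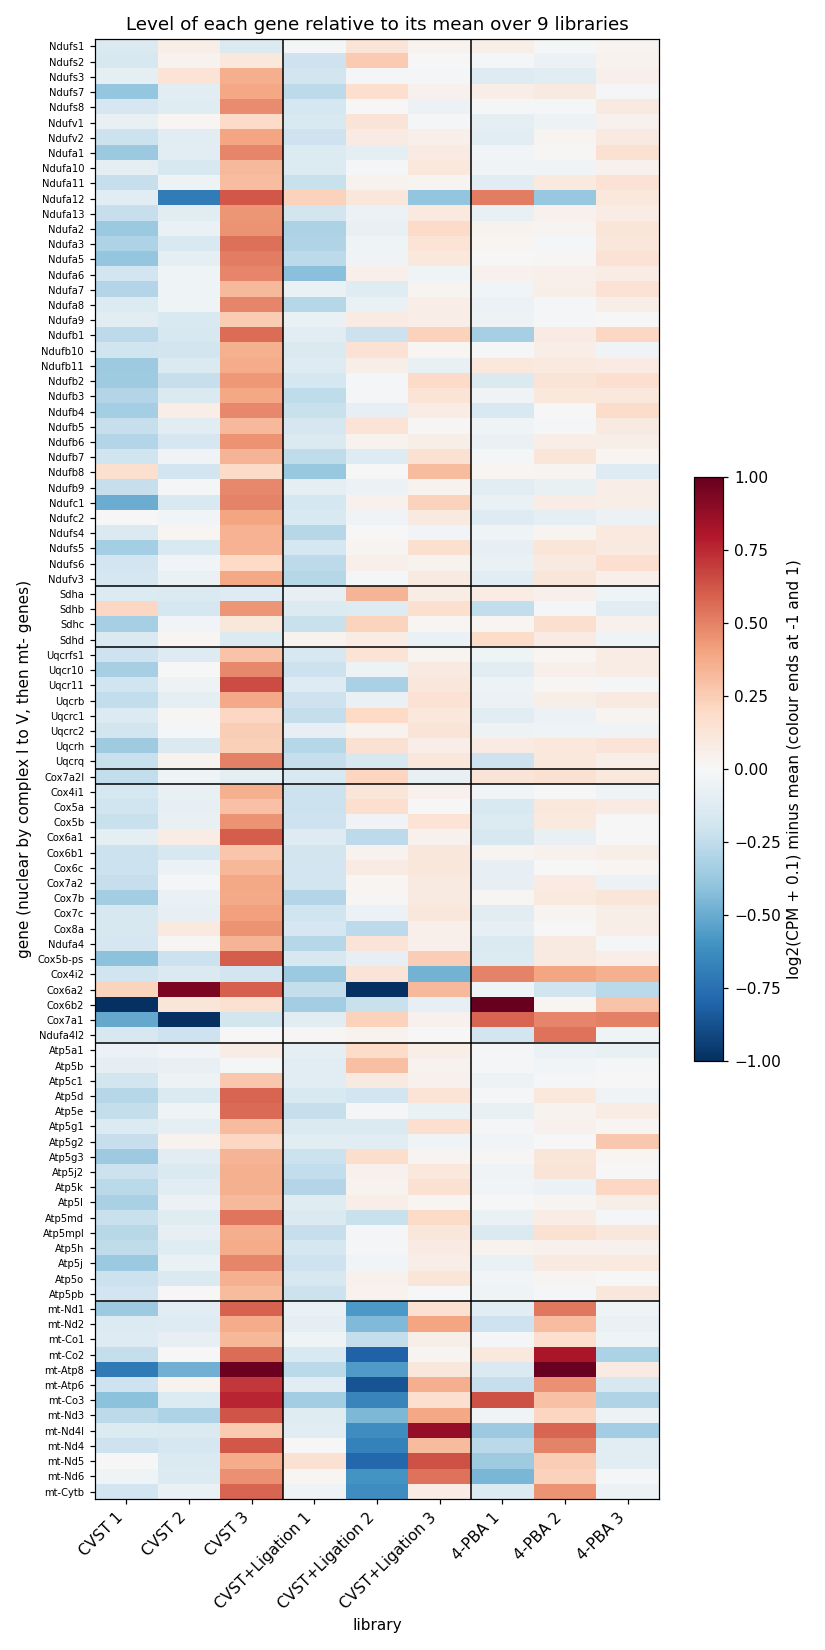
Each row is 1 of the 96 tested members and each column 1 library, and colour gives log2(CPM + 0.1) minus the mean of the row over 9 libraries. CVST replicate 3 is high for most rows, CVST replicate 1 is low for most nuclear rows, and CVST+Ligation replicate 2 is low for 12 of 13 mt- members.

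Nuclear members took 1.54, 1.70 and 2.03% of the counts in CVST, 1.60, 1.97 and 1.81% in CVST+Ligation and 1.78, 1.81 and 1.89% in 4-PBA (replicates 1 to 3). The group means were 1.76% ± 0.251 (SD, n = 3), 1.80% ± 0.185 and 1.83% ± 0.0590. The 95% Wilson counting intervals were narrow, for instance 2.03 to 2.04% for the highest share, and cover counting error only. The 3 ranges overlapped, and the SD of the CVST group exceeded the differences between the means. The mt- members took 6.28, 6.76 and 9.19% in CVST, 7.04, 5.72 and 7.72% in CVST+Ligation and 6.95, 8.84 and 7.27% in 4-PBA, and these ranges overlapped as well. mt-Co1, of whose windows 23.6% are shared, alone made up 53.9 to 64.4% of the mt- counts. The nuclear count divided by the mt- count, which does not depend on scaling between libraries, was 0.246, 0.252 and 0.221 in CVST, 0.228, 0.344 and 0.235 in CVST+Ligation and 0.256, 0.205 and 0.260 in 4-PBA. CVST+Ligation replicate 2 had the highest ratio of the 9 libraries, and the groups overlapped in every pair. The mean log2 ratio was 0.14 higher in CVST+Ligation than in CVST, and -0.05 without CVST+Ligation replicate 2. This replicate also stood apart in region markers, since the summed CPM of 7 cerebellar markers was 1326 there and 186 to 336 elsewhere. The part of brain region in the ratio was not tested.

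**Figure D3:**
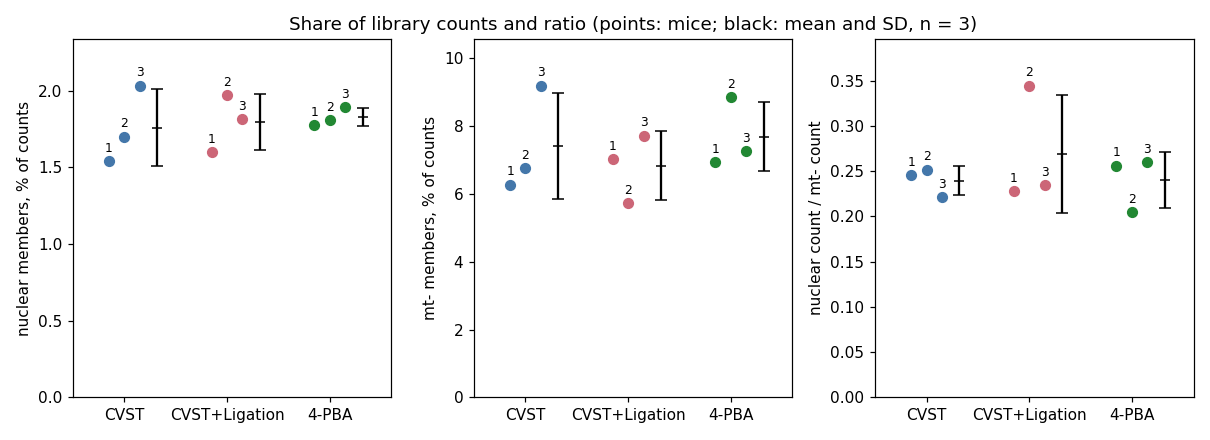
Percent of library counts taken by nuclear members (left) and mt- members (middle), and the ratio of both (right), for each mouse with its replicate number. Black marks give the mean and SD of 3 mice. The groups overlap in all 3 panels, and CVST+Ligation replicate 2 has the highest ratio, 0.344.

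The first comparison, CVST+Ligation against CVST, sets mice with both procedures beside mice with thrombosis alone. No member reached an adjusted p below 0.05, as did 3 of 14746 genes (0.0203%). At an unadjusted p below 0.05, 1 of 96 members was called, whereas 9.64% of all genes tested were (5.47% higher and 4.18% lower). The called member was Cox6a2, the heart and muscle isoform of complex IV subunit 6A, and it was lower after ligation. Groups did not overlap for 3 of 96 members, all higher (Sdha, Cox7a1 and Ndufa4l2), against 13.8% of all genes (6.61% higher and 7.21% lower).

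By complex, 6 of 36 nuclear members of complex I had a fold change above 0 and 30 below, with a median of -0.07 (log2). In complex II 3 of 4 were higher, in complex III 3 of 8, in complex IV 3 of 17 tested and in complex V 3 of 17. Over all nuclear members 19 were higher and 64 lower with a median of -0.06, and over the mt- members 2 were higher and 11 lower with a median of -0.20, compared with 0.00 for all genes. The mt- median was -0.36 for the 6 genes from mt-Co2 to mt-Nd4l and -0.12 for the other 7. This direction rested on single libraries, because without CVST replicate 3 the counts were 69 higher and 15 lower for nuclear members and 10 higher and 3 lower for mt- members. Without CVST+Ligation replicate 2 the mt- counts were 6 higher and 7 lower, with a median of -0.05. Without CVST+Ligation replicate 1 the nuclear counts were 49 higher and 35 lower. With adjustment for a trend with gene length in each library they were 55 higher and 28 lower, and with scaling by total counts they were 32 higher and 51 lower.

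A representative member of each complex (Ndufs1, Sdha, Uqcrc1, Cox4i1 and Atp5b) was compared library by library, and these overlapped between the CVST and CVST+Ligation groups, with the exception of Sdha. Ndufs1, which carries iron-sulfur clusters in complex I, had 277, 320 and 277 CPM in CVST and 302, 334 and 314 CPM in CVST+Ligation, a log2 fold change of 0.12 (SE 0.11). Uqcrc1, a large subunit of complex III outside its catalytic core, had 386, 429 and 492 CPM in CVST and 360, 489 and 456 CPM in CVST+Ligation, a log2 fold change of 0.00 (SE 0.15). Both group means of Uqcrc1 were 435 CPM, with SD of 53.1 and 66.7 CPM (n = 3). Cox4i1, a regulatory subunit of complex IV, had 627, 673 and 906 CPM in CVST and 612, 772 and 730 CPM in CVST+Ligation. Atp5b had 2087, 2115 and 2209 CPM in CVST and 2068, 2735 and 2284 CPM in CVST+Ligation. For both, single libraries set the range, CVST replicate 3 for Cox4i1 and CVST+Ligation replicate 2 for Atp5b.

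Sdha, the flavoprotein of complex II that oxidizes succinate (chr13:74322254-74350280, minus strand), had 634, 630 and 637 CPM in CVST and 658, 883 and 733 CPM in CVST+Ligation. Every ligated mouse was above every CVST mouse, and the highest was CVST+Ligation replicate 2. The log2 fold change was 0.26 (SE 0.13, 95% interval -0.03 to 0.54), with an unadjusted p of 0.070 and an adjusted p of 0.55 in edgeR's quasi-likelihood test. In 17 other settings the fold change of Sdha ran from 0.13 to 0.35, and its unadjusted p was below 0.05 in 3. Sdhb, the iron-sulfur subunit of the same complex, had a fold change of the opposite sign, -0.20, and overlapped between the groups.

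Cox6a2 (chr7:128205435-128206387, minus strand) had 8.71, 14.4 and 11.3 CPM in CVST and 6.28, 2.89 and 9.36 CPM in CVST+Ligation. The lowest value was that of CVST+Ligation replicate 2, and the groups overlapped. The log2 fold change was -0.89 (SE 0.38, 95% interval -1.73 to -0.05), with an unadjusted p of 0.041 and an adjusted p of 0.50. In 17 other settings the log2 fold change ran from -1.32 to -0.56. The unadjusted p stayed below 0.05 in 11 of these 17 settings and ranged from 0.0067 to 0.13. It was 0.13 without CVST replicate 2, 0.066 without CVST replicate 3, 0.078 without CVST+Ligation replicate 1 and 0.075 without CVST+Ligation replicate 2. Of the 5 skeletal muscle markers, Acta1 had 10.7 to 12.7 CPM in CVST and 3.40 to 10.1 CPM in CVST+Ligation, and the other 4 summed to 1.36 to 2.84 CPM in CVST and 2.15 to 2.63 CPM in CVST+Ligation. Their part in the level of Cox6a2 was not tested. Cox6a1, the widely expressed partner, had 192, 215 and 310 CPM in CVST and 187, 170 and 210 CPM in CVST+Ligation, a log2 fold change of -0.34 (SE 0.18, unadjusted p 0.087). Cox8a, the widely expressed form of subunit 8, had a log2 fold change of -0.27 (SE 0.16, unadjusted p 0.13), and Ndufs3, of the catalytic core of complex I, of -0.22 (SE 0.14, unadjusted p 0.15). Both overlapped between the groups.

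Among the mt- members, the lowest fold change was -0.42 (SE 0.33) for mt-Co2 and the highest 0.18 (SE 0.39) for mt-Nd4l. mt-Co1, the most abundant, had 38430, 39742 and 53071 CPM in CVST and 40940, 35757 and 43877 CPM in CVST+Ligation, a log2 fold change of -0.12 (SE 0.16, 95% interval -0.48 to 0.24). mt-Cytb had 9825, 10699 and 16741 CPM in CVST and 10935, 7282 and 11749 CPM in CVST+Ligation, a log2 fold change of -0.31 (SE 0.26). In both genes the highest library was CVST replicate 3 and the lowest CVST+Ligation replicate 2. The other fold changes were -0.23 for mt-Nd1, -0.06 for mt-Nd2, -0.40 for mt-Co3, -0.35 for mt-Atp6, -0.37 for mt-Atp8, -0.11 for mt-Nd3, -0.20 for mt-Nd4, 0.02 for mt-Nd5 and -0.05 for mt-Nd6. The groups overlapped for all 13.

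**Figure D4:**
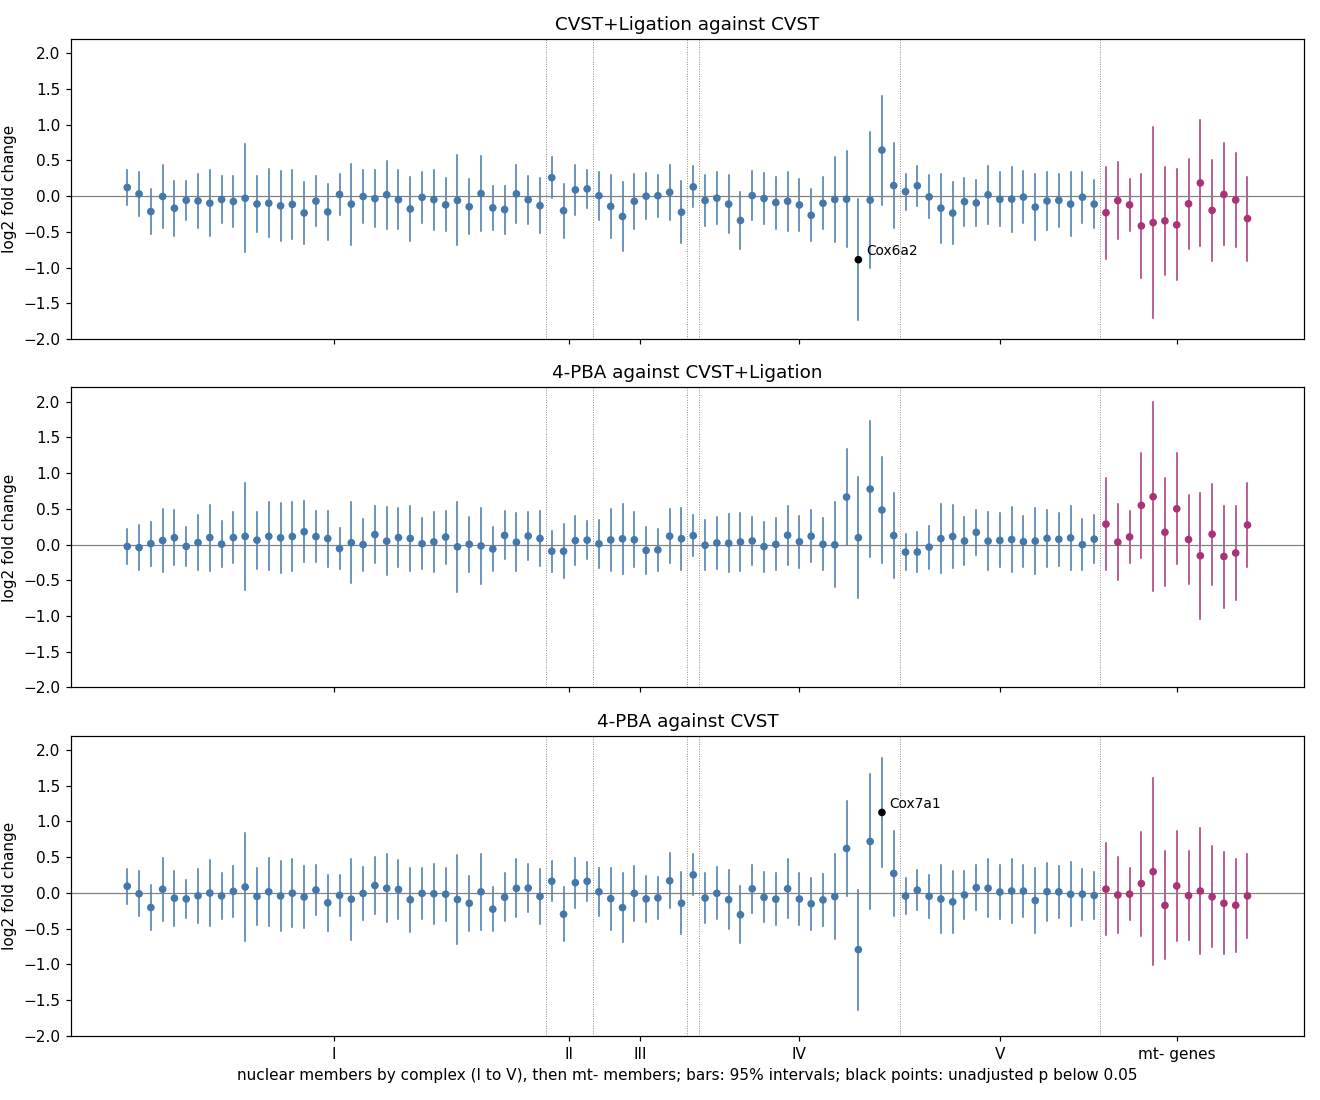
Log2 fold change of each tested member (y axis) with its 95% interval in the 3 comparisons, nuclear members in blue by complex and mt- members in purple, with Cox7a2l in the narrow strip between complexes III and IV. Black points have an unadjusted p below 0.05, namely Cox6a2 in CVST+Ligation against CVST and Cox7a1 in 4-PBA against CVST.

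The second comparison, 4-PBA against CVST+Ligation, sets treated beside untreated mice with both procedures. It shares the ligated mice with the first comparison, so opposite signs in the 2 comparisons are not separate observations. No member passed an unadjusted p below 0.05, whereas 3.23% of all genes did (1.81% higher and 1.42% lower), and no gene of 14746 had an adjusted p below 0.05. The smallest p of a member was 0.050, and DESeq2 called 1 of the members at the unadjusted level. Groups did not overlap for 5 of 96 members, all higher, against 7.73% of all genes (3.51% higher and 4.22% lower). The 5 were Cox4i2, Cox6b2, Cox7a1, Atp5g2, which encodes the c-ring, and Ndufb11, an accessory subunit of complex I.

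Of the nuclear members 64 were higher and 19 lower, with a median log2 fold change of 0.06, and of the mt- members 10 were higher and 3 lower, with a median of 0.14, compared with -0.02 for all genes. The mt- median was 0.34 for the 6 genes from mt-Co2 to mt-Nd4l and 0.11 for the other 7. The nuclear counts were 42 higher and 42 lower without CVST+Ligation replicate 1, and 37 higher and 46 lower with adjustment for gene length. Scaling by total counts gave 73 higher and 10 lower. The mt- counts were 6 higher and 7 lower without CVST+Ligation replicate 2 or without 4-PBA replicate 2. By complex, 28 of 36 nuclear members of complex I were higher, 2 of 4 of complex II, 6 of 8 of complex III, 14 of 17 of complex IV and 13 of 17 of complex V.

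The 3 highest fold changes among the nuclear members were those of Cox6b2, Cox4i2 and Cox7a1, tissue isoforms of complex IV. All 5 tissue isoforms that were tested had a fold change above 0, with a median of 0.48, and none passed the test. Cox4i2, the isoform of subunit 4 known from lung and from cells of the vessel wall (chr2:152754173-152765037, plus strand), had 1.61, 2.32 and 1.49 CPM in CVST+Ligation and 3.03, 2.82 and 2.74 CPM in 4-PBA. All 3 treated mice were above all ligated mice, and the log2 fold change was 0.66 (SE 0.30, 95% interval -0.0015 to 1.33, unadjusted p 0.050, adjusted p 0.9998). Its p was below 0.05 in 8 of 17 other settings. The gene had only 34 to 72 counts per library. Markers of endothelium and pericytes, 8 genes, summed to 269 to 401 CPM in CVST+Ligation and 337 to 359 CPM in 4-PBA, so that the treated mice lay within the range of the ligated mice. Their part in the level of Cox4i2 was not tested. Cox6b2, a testis isoform of subunit 6B, had 1.74, 1.91 and 2.11 CPM in CVST+Ligation and 4.88, 2.27 and 2.74 CPM in 4-PBA, with 4-PBA replicate 1 apart from the rest (log2 fold change 0.78, SE 0.42, unadjusted p 0.098).

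The widely expressed partner genes overlapped between the 2 groups. Cox4i1 had 694, 712 and 693 CPM in 4-PBA, a log2 fold change of -0.01 (SE 0.16, 95% interval -0.36 to 0.34). Cox7a2 had 187, 216 and 226 CPM in CVST+Ligation and 201, 225 and 205 CPM in 4-PBA, a log2 fold change of 0.00 (SE 0.16). Ndufa4, a subunit of complex IV despite its name, had 218, 290 and 274 CPM in CVST+Ligation and 240, 282 and 262 CPM in 4-PBA, also a log2 fold change of 0.00 (SE 0.16). Its relative Ndufa4l2, known as a hypoxia-induced gene, had 3.80, 3.87 and 3.78 CPM in CVST+Ligation and 3.31, 5.51 and 3.66 CPM in 4-PBA, a log2 fold change of 0.12 (SE 0.27).

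Of the nuclear members with a fold change below 0, the 4 with the smallest p were Atp5a1 with -0.11, Atp5b with -0.11, Sdha with -0.09 and Uqcrc2 with -0.07, none past the test and each with an interval that included 0. Atp5a1 and Atp5b encode the alpha and beta subunits of the F1 head. In the ligated group CVST+Ligation replicate 2 had the highest level of Atp5b and Sdha. Among the mt- members, mt-Atp8 had the highest fold change, 0.67 (SE 0.59), on 12 to 48 counts per library, followed by mt-Co2 with 0.55 (SE 0.33) and mt-Co3 with 0.50 (SE 0.35). mt-Co1 had 41471, 47377 and 40916 CPM in 4-PBA, a log2 fold change of 0.11 (SE 0.16), and mt-Cytb had 10163, 15308 and 10733 CPM, a log2 fold change of 0.27 (SE 0.26). The remaining fold changes ran from -0.17 for mt-Nd5 to 0.29 for mt-Nd1, and all 13 genes overlapped between the groups.

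The third comparison set 4-PBA against CVST, which differ by both ligation and drug, so that the parts of these cannot be told apart. No member had an adjusted p below 0.05, as did 18 of 14746 genes (0.122%). At the unadjusted level 1 of 96 members was called, against 15.4% of all genes (8.07% higher and 7.33% lower). This was Cox7a1, the heart and muscle isoform of subunit 7A. Groups did not overlap for 6 of 96 members, 4 higher and 2 lower, against 23.7% of all genes (12.3% higher and 11.5% lower).

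Cox7a1 (chr7:30184144-30186078, plus strand) had 1.19, 0.798 and 1.52 CPM in CVST, 1.61, 2.06 and 1.80 CPM in CVST+Ligation and 2.66, 2.48 and 2.51 CPM in 4-PBA. The 3 groups did not overlap, with CVST lowest and 4-PBA highest. Its counts were 28, 18 and 28 in CVST, 39, 40 and 41 in CVST+Ligation and 49, 59 and 66 in 4-PBA. The log2 fold change of 4-PBA over CVST was 1.13 (SE 0.34, 95% interval 0.37 to 1.89), with an unadjusted p of 0.0082 and an adjusted p of 0.16. The unadjusted p stayed below 0.05 in all 17 other settings run, from 0.00054 to 0.031. The adjusted p ranged from 0.038 to 0.38, and DESeq2, with 0.038, was the only setting that called a member at the adjusted level in any comparison. The steps between neighbouring groups did not pass the test, with 0.64 (SE 0.34, unadjusted p 0.089) for CVST+Ligation over CVST and 0.48 (SE 0.33, unadjusted p 0.18) for 4-PBA over CVST+Ligation. Its partner Cox7a2 had a log2 fold change of -0.09 (SE 0.16) between 4-PBA and CVST. No sequence window of Cox7a1 was shared with another gene. Among the skeletal muscle markers, Acta1 had 10.7 to 12.7 CPM in CVST and 4.17 to 5.76 CPM in 4-PBA, while the other 4 summed to 1.36 to 2.84 CPM and 2.11 to 3.62 CPM. Their part in the level of Cox7a1 was not tested.

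**Figure D5:**
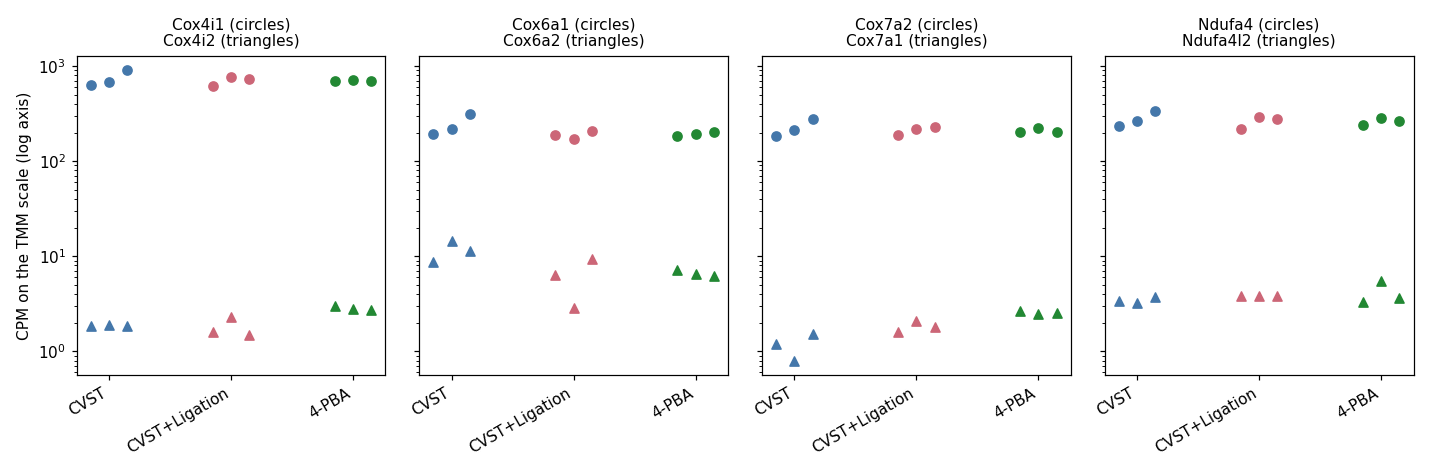
CPM (log axis) of 4 widely expressed subunits (circles) and their tissue-restricted relatives (triangles) in each library, coloured by group. Cox7a1 lies at 0.798 to 1.52 CPM in CVST, 1.61 to 2.06 CPM in CVST+Ligation and 2.48 to 2.66 CPM in 4-PBA, while Cox7a2 overlaps between the groups.

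Cox4i2 was also separate in 4-PBA and CVST, with 1.83, 1.91 and 1.84 CPM in CVST (log2 fold change 0.62, SE 0.30, unadjusted p 0.064). Cox6a2 had 7.21, 6.48 and 6.17 CPM in 4-PBA, each below the CVST mice, with a log2 fold change of -0.79 (SE 0.38, unadjusted p 0.062). Cox7a2l had 102, 117 and 113 CPM in CVST and 132, 134 and 130 CPM in 4-PBA, a log2 fold change of 0.25 (SE 0.13, unadjusted p 0.077). Sdha had 735, 720 and 676 CPM in 4-PBA, above all CVST mice, with a log2 fold change of 0.16 (SE 0.13). Ndufc2, an accessory subunit of complex I, was lower in every 4-PBA mouse than in every CVST mouse, with a log2 fold change of -0.23 (SE 0.14, unadjusted p 0.13). Cox6b2 with 0.72 (SE 0.42), Sdhb with -0.30 (SE 0.17) and Cox6a1 with -0.31 (SE 0.18) overlapped between the 2 groups. None of these passed the test.

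Over all nuclear members 32 were higher and 51 lower in 4-PBA than in CVST, with a median of -0.02, and over the mt- members 5 were higher and 8 lower, with a median of -0.03, compared with -0.01 for all genes. The mt- median was 0.06 for the 6 genes from mt-Co2 to mt-Nd4l and -0.04 for the other 7. Without CVST replicate 3 the counts were 75 higher and 9 lower for nuclear members and 13 higher and 0 lower for mt- members. Without CVST replicate 1 they were 13 higher and 71 lower, and 0 higher and 13 lower. Scaling by total counts gave 60 higher and 23 lower for nuclear members. The mt- fold changes ran from -0.17 for mt-Atp6 to 0.30 for mt-Atp8 with SE of 0.16 to 0.58, and all 13 genes overlapped between the groups. mt-Co1 had a log2 fold change of -0.02 (SE 0.16) and mt-Cytb of -0.04 (SE 0.26).

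How small a change the libraries could show was read from the intervals. The 95% interval of a nuclear member reached 0.38 (median, log2) to either side of its fold change and that of a mt- member 0.71. In the 3 comparisons, intervals lay within 1 (log2) of 0, a doubling or halving, for 80, 80 and 79 of 83 nuclear members and for 8, 9 and 12 of 13 mt- members. They lay within 0.5 for 48, 56 and 54 nuclear members, and for 1 mt- member in each comparison. The spread of log2 CPM within groups was 0.22 (median SD) for nuclear members and 0.46 for mt- members, against 0.30 for all genes tested. Among genes with a mean of at least 30 CPM, it was 0.206 for 74 nuclear members and 0.210 for 6214 genes. Ndufs1 had the lowest within-group SD of the nuclear members, 0.086, and Cox6a2 the highest, 0.53. Of the mt- members mt-Co1 varied least, 0.18, and mt-Atp8 most, 0.66.

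Fold changes of short and long members were compared in each comparison. Of the nuclear members, 41 had a length under 414 bases, as recovered from the deposited FPKM, and their median log2 fold change was -0.08 in CVST+Ligation against CVST and 0.08 in 4-PBA against CVST+Ligation, compared with -0.05 and 0.02 for the 42 longer members. In 4-PBA against CVST the medians were -0.01 for the short and -0.04 for the longer members. Over all genes tested, the 627 short genes had medians of -0.13, 0.09 and -0.04 in the 3 comparisons, against 0.01, -0.02 and -0.01 for 14119 longer genes. Median fold changes of members with NRF1 letters in the promoter were -0.05 for 17 against -0.07 for 50 in CVST+Ligation against CVST, 0.07 against 0.05 in 4-PBA against CVST+Ligation and 0.01 against -0.03 in 4-PBA against CVST. With and without ETS letters (17 and 50 members) they were -0.12 against -0.06, 0.07 against 0.05 and -0.02 against -0.01. With and without YY1 letters (10 and 57 members) they were -0.06 against -0.07, 0.07 against 0.05 and -0.03 against -0.02, and with and without the E-box (6 and 61 members) -0.06 against -0.07, 0.05 against 0.06 and 0.00 against -0.02. These medians carry no test.

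Summed levels of markers of brain regions and cell types also differed between libraries, and the lists did not share 1 direction. Summed over 8 genes, cortical layer markers ran from 551 to 885 CPM in CVST, 279 to 487 CPM in CVST+Ligation and 235 to 350.2 CPM in 4-PBA. Midbrain and brainstem markers (8 genes) ran from 21.3 to 26.3, 164 to 442 and 218 to 226 CPM, and hypothalamic markers (7 genes) from 2.25 to 3.47, 2.23 to 20.9 and 277 to 473 CPM. Neuronal markers (9 genes) ran from 5913 to 6534, 4479 to 5621 and 3824 to 4550.3 CPM, and oligodendrocyte markers (8 genes) from 2654 to 3489, 2656 to 5964 and 4714 to 7504 CPM. Thalamic markers (6 genes) ran from 53.5 to 63.3, 122 to 217 and 232 to 516 CPM. Striatal markers (7 genes) ran from 998 to 1664, 180 to 485 and 232 to 1167 CPM, so that 1 treated mouse, 4-PBA replicate 2, lay within the CVST range. Microglial markers (8 genes) ran from 862 to 968, 674 to 736 and 674 to 843 CPM, and all mice of the other two groups lay below those of CVST. Choroid plexus markers (5 genes) spread widely within groups, from 791 to 985, 17.1 to 861 and 444 to 3131 CPM, and cerebellar markers (7 genes) ran from 186 to 283, 278 to 1326 and 223 to 336 CPM, with the highest value in CVST+Ligation replicate 2. Astrocyte markers (8 genes), at 1938 to 3073, 2328 to 3766 and 2368 to 3562 CPM, blood markers (5 genes), at 154 to 186, 152 to 329 and 167 to 211 CPM, neutrophil markers (4 genes), at 1.10 to 5.85, 0.66 to 3.45 and 1.19 to 9.41 CPM, and meningeal markers (4 genes), at 70.2 to 106, 90.2 to 183 and 94.8 to 309 CPM, overlapped between the groups. The genes of the neuronal list did not move alike. Snap25, of the vesicle fusion machinery, ran from 1731 to 2164, 1363 to 1718 and 1128 to 1214 CPM, whereas Slc17a6, a vesicular glutamate transporter, ran from 12.3 to 17.6, 37.0 to 134 and 88.5 to 91.7 CPM, and Tubb3, a neuronal tubulin, from 421 to 539, 408 to 582 and 441 to 797 CPM. No gene of these lists was at 0 in all libraries. Their part in the levels of the members was not tested, and in bulk RNA fewer cells of a type and less RNA per cell cannot be told apart. Sums of midbrain and brainstem markers separated CVST from the other groups, and those of hypothalamic markers separated 4-PBA from the others. A difference in the tissue sampled therefore cannot be told apart from ligation or drug in the 3 comparisons.

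Genes that serve the same pathway were compared by list. No gene of any list had an adjusted p below 0.05. Over all genes tested, 9.64%, 3.23% and 15.4% were called at an unadjusted p below 0.05 in the 3 comparisons, and no list was tested against these shares. Assembly factors of the complexes (52 genes tested) had 0 higher and 1 lower at an unadjusted p below 0.05 in CVST+Ligation against CVST, 0 in 4-PBA against CVST+Ligation and 1 higher and 1 lower in 4-PBA against CVST. The one lower after ligation was Ndufaf8, an assembly factor of complex I, with a log2 fold change of -0.49 (SE 0.20). Tmem126b, which helps to build the membrane arm of complex I, was higher in 4-PBA than in CVST by 0.39 (SE 0.15), and Sco2, a copper chaperone of complex IV, was lower by -0.32 (SE 0.14).

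Of 31 genes of the citric acid cycle and of pyruvate entry, 2 were lower after ligation, Pdp1, a phosphatase that activates pyruvate dehydrogenase, by -0.77 (SE 0.24), and Me3, mitochondrial malic enzyme. Me3 had 88.0, 72.3 and 92.9 CPM in CVST, 65.3, 36.1 and 60.3 CPM in CVST+Ligation and 44.7, 49.2 and 34.1 CPM in 4-PBA, and differed between 4-PBA and CVST by -0.98 (SE 0.23, unadjusted p 0.0019, adjusted p 0.099). Of 44 genes for mitochondrial DNA, RNA and biogenesis, Fastk and Rexo2 were lower after ligation, and in 4-PBA against CVST Lrpprc, which stabilizes mitochondrial mRNA, was higher by 0.30 (SE 0.12) and Polg, the mitochondrial DNA polymerase, lower by -0.32 (SE 0.11). Tfam, which packages mitochondrial DNA, had 27.6, 29.0 and 29.5 CPM in CVST and 36.7, 33.7 and 35.5 CPM in CVST+Ligation (log2 fold change 0.30, SE 0.14, unadjusted p 0.058).

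Of 49 large subunit proteins of the mitochondrial ribosome, Mrpl33 was lower after ligation by -0.54 (SE 0.19) and Mrpl37 lower in 4-PBA than in CVST by -0.28 (SE 0.12). Of 32 genes in the small subunit list, none passed the test after ligation, and Ptcd3 was higher by 0.28 (SE 0.11) and Mrps18b lower by -0.46 (SE 0.16) in 4-PBA than in CVST. Of 34 carriers, porins and cofactor genes, Ucp2, an uncoupling protein family member, was the only gene of the 6 lists with an unadjusted p below 0.05 in 4-PBA against CVST+Ligation, at 30.3, 46.2 and 33.7 CPM in CVST+Ligation and 47.2, 67.7 and 66.6 CPM in 4-PBA (log2 fold change 0.72, SE 0.20, unadjusted p 0.0052, adjusted p 0.9998). Coq8a, needed for coenzyme Q synthesis, was lower in 4-PBA than in CVST by -0.41 (SE 0.17). Cycs, cytochrome c itself, had fold changes of -0.09, 0.07 and -0.02 (SE 0.13) in the 3 comparisons, and Cyc1, cytochrome c1 of complex III, of -0.05, -0.13 and -0.18 (SE 0.16). Atpif1, the inhibitor of ATP synthase, had fold changes of -0.27, -0.03 and -0.30 (SE 0.16).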

How the data were processed

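RNA from the brains of 9 mice, 3 per group, was sequenced as paired reads of 150 bases. According to the methods and the labels, the authors used fastp, HISAT2, StringTie and RSEM, with mm10/GRCm38 named as the genome. Their versions, the annotation, and the treatment of reads that match several places are not given in the sources used here. The authors deposited counts (whole numbers of reads per gene symbol, not normalized) and a second table that the methods call TPM but whose values are FPKM: dividing counts by the library total and by 1 length per gene gives its values, and its columns sum to 780195 to 879696.

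The main test was edgeR 4.0.16 under R 4.3.3 (TMM, filterByExpr, quasi-likelihood test, 1 fit of 3 groups, 14746 genes, Benjamini-Hochberg adjustment over all of them). The common biological coefficient of variation was 0.287. Groups were taken from sample names. Standard errors were derived from the F statistics. Replicates are separate mice. DESeq2 1.42.0, limma 3.58.1 on log2(FPKM + 1) and log2(FPKM + 0.1), other scalings, other filters, a gene length trend and leaving out each library were alternatives. FPKM were used to compare levels between genes, with the limit that the lengths used were unlike.

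Named members were the 4 nuclear members with the smallest p in each direction and comparison, all mt- members, 1 representative gene per complex and related isoform pairs. Named genes of other lists had the smallest p per direction or were called, and Cycs, Cyc1 and Atpif1 were fixed by name. Ndufb8, Ndufb4, Atp5l, Ndufb11, Cox7b2 and the markers Acta1, Snap25, Slc17a6 and Tubb3 were singled out after their values were seen. Members and lists were chosen with earlier results of these data known.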

Additional observations from a re-analysis of the deposited data

How the results depend on the processing

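Counts of members with an unadjusted p below 0.05 were low in every setting run. For CVST+Ligation against CVST (1 in the reported fit), the count was 2 with scaling by total counts, 0 with only the groups compared, 3 with limma on log2(FPKM + 1), 2 on log2(FPKM + 0.1) and 0 to 4 when single libraries were left out. For 4-PBA against CVST+Ligation (0), it was 1 with DESeq2 size factors, total counts, scaling without the mt- genes, a minimum of 10 counts in every library, DESeq2 and both limma fits, and 0 to 1 without single libraries. For 4-PBA against CVST (1), it was 3 with total counts, 2 with the 10-count minimum, 3 with only the groups compared, 2 with DESeq2, 3 with both limma fits and 1 to 4 without single libraries. The cause of these changes was not tested. The median fold change of nuclear members minus that of mt- members was 0.14, -0.09 and 0.01 in the 3 comparisons. It moved in every setting by less than 1 SD between mice (0.35, 0.40 and 0.24). That SD exceeded the values themselves, so this bound says little about their stability. The sign of the difference changed without CVST+Ligation replicate 2 (-0.04 and 0.16 in the first and second) and without 4-PBA replicate 2 (0.05 in the second). In the third it was -0.002 with the replicate block, -0.058 without CVST replicate 3, -0.053 without 4-PBA replicate 1 and -0.078 without 4-PBA replicate 3, and it moved furthest, to 0.203, without 4-PBA replicate 2.

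Groups share replicate numbers, and same-numbered libraries correlated at 0.036 to 0.324, 0.041 to 0.126 and -0.052 to 0.031 in the 3 comparisons. These values cannot decide whether the libraries share more than a number. With a replicate block the counts of members were 1, 0 and 1. Over all genes, the block gave 1765, 521 and 2644 calls at an unadjusted p below 0.05, against 1422, 476 and 2271 in the reported fit. Of 1734 single-gene values recomputed, 1666 kept their call or, where not called, moved by less than 1 SE, 34 came to pass the threshold, 6 no longer passed, 28 moved further and 0 called values reversed. The sign changed in 168 values, none of which passed the threshold in either fit. With 3 mice per group, 95% intervals of mt- members reached 0.36 (mt-Co1) to 1.33 (mt-Atp8) on the log2 scale to either side.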
